A study of Mus musculus with 12 samples.

Results

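Imprinted growth regulators were examined as a set of 10 genes, H19, Igf2, Cdkn1c, Dlk1, Meg3, Peg3, Mest, Grb10, Plagl1 and Ndn, across the 4 mesenchymal populations of mouse bone marrow that were profiled by RNA-seq. The genes were chosen by name, with earlier results of these data known, and were matched to their Ensembl identifiers. All 10 were found among the 49585 identifiers counted. Each population was sorted from wild-type male C57BL/6 mice, 8 to 10 weeks old and at steady state, and had 3 libraries of 2000 cells. Itga8+ MSCs were Itga8+Alcam+Sca-1-, Itga8-Alcam+ bone-lining cells (BLCs, given as osteoblasts in the labels) were Itga8-Alcam+Sca-1-, Sca-1+ MSCs were Alcam-Sca-1+, and the last population was CD51+CD140a+ MSCs. All were negative for CD45, Ter119 and CD31, the surface markers of blood, erythroid and endothelial cells. The first 3 populations were released with collagenase from bone that had been flushed of marrow, whereas CD51+CD140a+ MSCs came from the flushed marrow after digestion with Accumax, so that population and isolation cannot be told apart in any comparison with CD51+CD140a+ MSCs. The labels do not say whether the libraries of a population came from separate animals, and the p-values therefore measure only the spread between these libraries, which may be technical.

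At an imprinted gene only the copy inherited from the mother or only the copy inherited from the father is transcribed, according to DNA methylation set in the germ line. Many imprinted genes control growth before birth, and as a rule the paternally expressed ones promote growth and the maternally expressed ones restrain it. Their transcription falls in most tissues after birth, and several remain active in adult stem cells. Of the 10 genes, Igf2, Mest, Dlk1, Peg3, Plagl1 and Ndn are expressed from the paternal copy, H19, Cdkn1c and Meg3 from the maternal copy, and Grb10 from the maternal copy in most tissues and the paternal copy in neurons. The counts here were summed over both copies, and the mice were of an inbred strain, so the parental origin of the transcripts was not measured.

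The 12 libraries held between 17580677 and 31332475 counted reads, and a count of 3, used as the floor of detection, corresponded to 0.0820 to 0.180 CPM (counts relative to the TMM-scaled size of each library). Itga8 was at 35.2 to 199 CPM in Itga8+ MSCs and at 0.398 to 4.17 CPM in Itga8-Alcam+ BLCs. It was at 53.1 to 82.9 CPM in CD51+CD140a+ MSCs, which were not sorted on it. Dmp1, an osteocyte and osteoblast matrix gene, was at 1630 to 2260 CPM in Itga8-Alcam+ BLCs. By the thresholds given below, 6 of 8 osteoblast markers were higher in Itga8-Alcam+ BLCs than in CD51+CD140a+ MSCs. Only 1, Ibsp, was lower (all genes 20.4% higher and 14.9% lower). Against Sca-1+ MSCs 7 were higher and 0 lower (14.5% and 11.9%). In Itga8+ MSCs all 8 were lower than in Itga8-Alcam+ BLCs (2.16% of all genes). Ly6a, which encodes Sca-1, was at 611 to 659 CPM in Sca-1+ MSCs, and Lepr at 5730 to 6740 CPM in CD51+CD140a+ MSCs. Alcam was at 1.29 to 5.82 CPM in the Alcam+ sorts and at 0 to 0.221 CPM in the others. Pdgfra, which encodes CD140a, was at 682 to 867 CPM in CD51+CD140a+ MSCs and at 734 to 1020 CPM in Sca-1+ MSCs. Itgav, which encodes CD51, was at 121 to 195 and 126 to 150 CPM in the same order. For both genes the libraries of these 2 populations overlapped. Libraries of Itga8+ MSCs and Itga8-Alcam+ BLCs also differed among themselves with gene length. Genes with at least 5939 bases of exon were lower by a median of 0.84 (log2) in library 2 of Itga8+ MSCs and by 0.558 in library 3 of Itga8-Alcam+ BLCs than in the other libraries of the same population (medians of -0.84 and -0.558), and higher by 0.741 and 0.726 in library 3 of Itga8+ MSCs and library 2 of Itga8-Alcam+ BLCs. In the Sca-1+ and CD51+CD140a+ MSC libraries this median lay between -0.134 and 0.117. Of the 10 genes, 4 are of this length, namely Meg3, Peg3, Grb10 and Plagl1. Genes with at most 3325 bases of exon, among them H19 and Cdkn1c, moved the other way in these libraries. Their medians were 0.862 and -0.575 in libraries 2 and 3 of Itga8+ MSCs. In libraries 2 and 3 of Itga8-Alcam+ BLCs they were -0.535 and 0.544.

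Markers of other cell types also moved with the populations. The 8 leukocyte markers summed to 2040 to 8870 CPM in Itga8+ MSCs and 3400 to 5720 CPM in Itga8-Alcam+ BLCs, against 761 to 1230 CPM in Sca-1+ MSCs and 907 to 1650 CPM in CD51+CD140a+ MSCs, with Cd3e at 0 in every library. The 5 cartilage markers summed to 14600 to 121000 CPM in Itga8+ MSCs, 13800 to 74200 CPM in Itga8-Alcam+ BLCs, 9160 to 9820 CPM in Sca-1+ MSCs and 538 to 1350 CPM in CD51+CD140a+ MSCs. For the 7 markers of skeletal muscle fibres the sums were 22.1 to 59.7, 39.9 to 107, 1.87 to 3.93 and 2.71 to 3.83 CPM in the same order, with Myh4 at 0 in every library outside Itga8-Alcam+ BLCs. Of the Schwann cell markers S100b, which chondrocytes also express, was at 46.3 to 120 CPM in Itga8+ MSCs, 70.1 to 127 CPM in Itga8-Alcam+ BLCs, 5.37 to 7.12 CPM in Sca-1+ MSCs and 12.2 to 16.1 CPM in CD51+CD140a+ MSCs. Sox10 reached 4.54 CPM in Itga8-Alcam+ BLCs and was at 0 in Sca-1+ MSCs. For the 3 lists and S100b, as for H19 and Mest, all 6 libraries of the Alcam+ sorts lay above the other 6. The 6 tendon markers summed to 12900 to 23600 CPM in Itga8+ MSCs, 3790 to 6400 CPM in Itga8-Alcam+ BLCs, 6270 to 9350 CPM in Sca-1+ MSCs and 83.4 to 113 CPM in CD51+CD140a+ MSCs. The 4 markers of smooth muscle and pericytes summed to 97.8 to 250 CPM in Itga8+ MSCs and to 19.6 to 69.1 CPM in the other libraries. For both of these lists, as for Mest and Cdkn1c, the 3 Itga8+ MSC libraries lay above all others. The 6 markers of muscle satellite cells summed to 74 to 180 CPM in Itga8-Alcam+ BLCs, most of it Cdh15 at 70.4, 154 and 120 CPM, and to 2.18 to 14.7 CPM in Itga8+ MSCs, 17.4 to 18.8 CPM in Sca-1+ MSCs and 29.1 to 45.2 CPM in CD51+CD140a+ MSCs. In the last 3 populations Pax7 and Myf5 were at 0 in every library, and in Itga8-Alcam+ BLCs they reached 0.0463 and 0.324 CPM in 1 library. The 5 endothelial markers summed to 72.2 to 109 CPM in Sca-1+ MSCs and to 9.76 to 25.3 CPM in the other libraries, and the 5 erythroid markers to 118 to 1500 CPM in Itga8+ MSCs and 133 to 539 CPM in the others. The part of all these transcripts in the values below was not tested.

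The promoters of imprinted genes are often rich in CpG, the dinucleotide at which DNA is methylated. RefSeq promoter windows of 300 bases on GRCm38.p6 (250 before and 50 after a start site) were found for 8 of the 10 genes, 15 windows in all. They held a median of 13 CpG, against a median of 7 over all 32851 windows. The windows of Mest, Plagl1 and Igf2 are shown because Mest was highest in Itga8+ MSCs and the other two in CD51+CD140a+ MSCs, each as the 250 bases before the start site, 5′ to 3′, with every CpG in capitals. Mest is shown at chr6:30737800-30738049 on the plus strand, Plagl1 at chr10:13090582-13090831 on the plus strand, and Igf2 at chr7:142658805-142659054 on the minus strand, the most CpG-rich of its 4 windows.
Mest: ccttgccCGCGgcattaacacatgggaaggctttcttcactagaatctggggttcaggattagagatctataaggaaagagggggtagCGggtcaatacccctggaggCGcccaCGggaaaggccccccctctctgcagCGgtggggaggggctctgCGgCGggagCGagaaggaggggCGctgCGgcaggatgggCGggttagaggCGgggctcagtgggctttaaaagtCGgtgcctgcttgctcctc
Plagl1: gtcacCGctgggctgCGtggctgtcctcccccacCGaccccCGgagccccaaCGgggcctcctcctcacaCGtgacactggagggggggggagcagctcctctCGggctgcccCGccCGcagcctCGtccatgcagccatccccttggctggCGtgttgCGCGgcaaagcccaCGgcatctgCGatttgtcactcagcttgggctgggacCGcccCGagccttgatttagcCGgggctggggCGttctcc
Igf2: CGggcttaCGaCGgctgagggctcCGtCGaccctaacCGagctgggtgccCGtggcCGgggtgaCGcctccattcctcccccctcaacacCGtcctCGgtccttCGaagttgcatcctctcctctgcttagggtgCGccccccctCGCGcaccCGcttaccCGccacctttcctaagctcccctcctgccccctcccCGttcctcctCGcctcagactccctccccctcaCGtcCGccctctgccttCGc
These stretches held 14, 19 and 22 CpG. Mest had 3 windows, of which 1 held 8 CpG and the other two 17 each, and 1 of the CpG-rich ones is shown. The full windows shown for Mest and Plagl1 held 17 and 26 CpG, more than 68.6% and 83.1% of all promoter windows. A window of Grb10 held 45 CpG, more than 98.1% of windows, while Igf2 also had a window with 2 and Meg3 one with 1.

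Plagl1 encodes a zinc finger factor, also called ZAC1, whose core site is GGGGCCCC. This word, which reads the same on both strands, occurred in 1 of the 15 windows, that of Peg3, and in 1.08% of all windows. It is in capitals in the 250 bases before the Peg3 start site, at chr7:6730420-6730669 on the minus strand.
Peg3: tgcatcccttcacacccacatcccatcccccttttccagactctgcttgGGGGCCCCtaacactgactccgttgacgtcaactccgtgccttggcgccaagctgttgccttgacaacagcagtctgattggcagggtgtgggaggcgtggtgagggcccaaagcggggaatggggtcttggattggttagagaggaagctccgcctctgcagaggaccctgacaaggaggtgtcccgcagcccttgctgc
The core motif of CTCF, the insulator protein, and the YY1 core AANATGGC, searched on both strands, were in none of the 15 windows and in 0.0365% and 6.05% of all windows. A match describes letters only, and a window without a match does not speak of the factor.

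All 10 genes passed the filter of 0.5 CPM in at least 1 library and were tested within 18648 genes in all. Per length of transcript, Cdkn1c was the most abundant of the 10 in Itga8+ MSCs, Itga8-Alcam+ BLCs and CD51+CD140a+ MSCs, at a mean of 295, 133 and 186 TPM (reads per base of annotated exon, scaled to the same total in each library). In Sca-1+ MSCs Ndn and Grb10 came first, at 99.8 ± 9.17 and 95.1 ± 9.5 TPM (SD, n = 3), and Cdkn1c was at 50.4 TPM. Mest was at 120 TPM and H19 at 63.1 TPM in Itga8+ MSCs, and at 9.97 and 2.76 TPM in CD51+CD140a+ MSCs. Meg3 and Dlk1 were at the low end, with means of at most 1.23 and 1.42 TPM in any population. The set thus spanned from abundant transcripts to ones near the limit of detection. Throughout, counts from 2000 sorted cells cannot tell a smaller share of expressing cells from less RNA per cell.

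**Figure D1:**
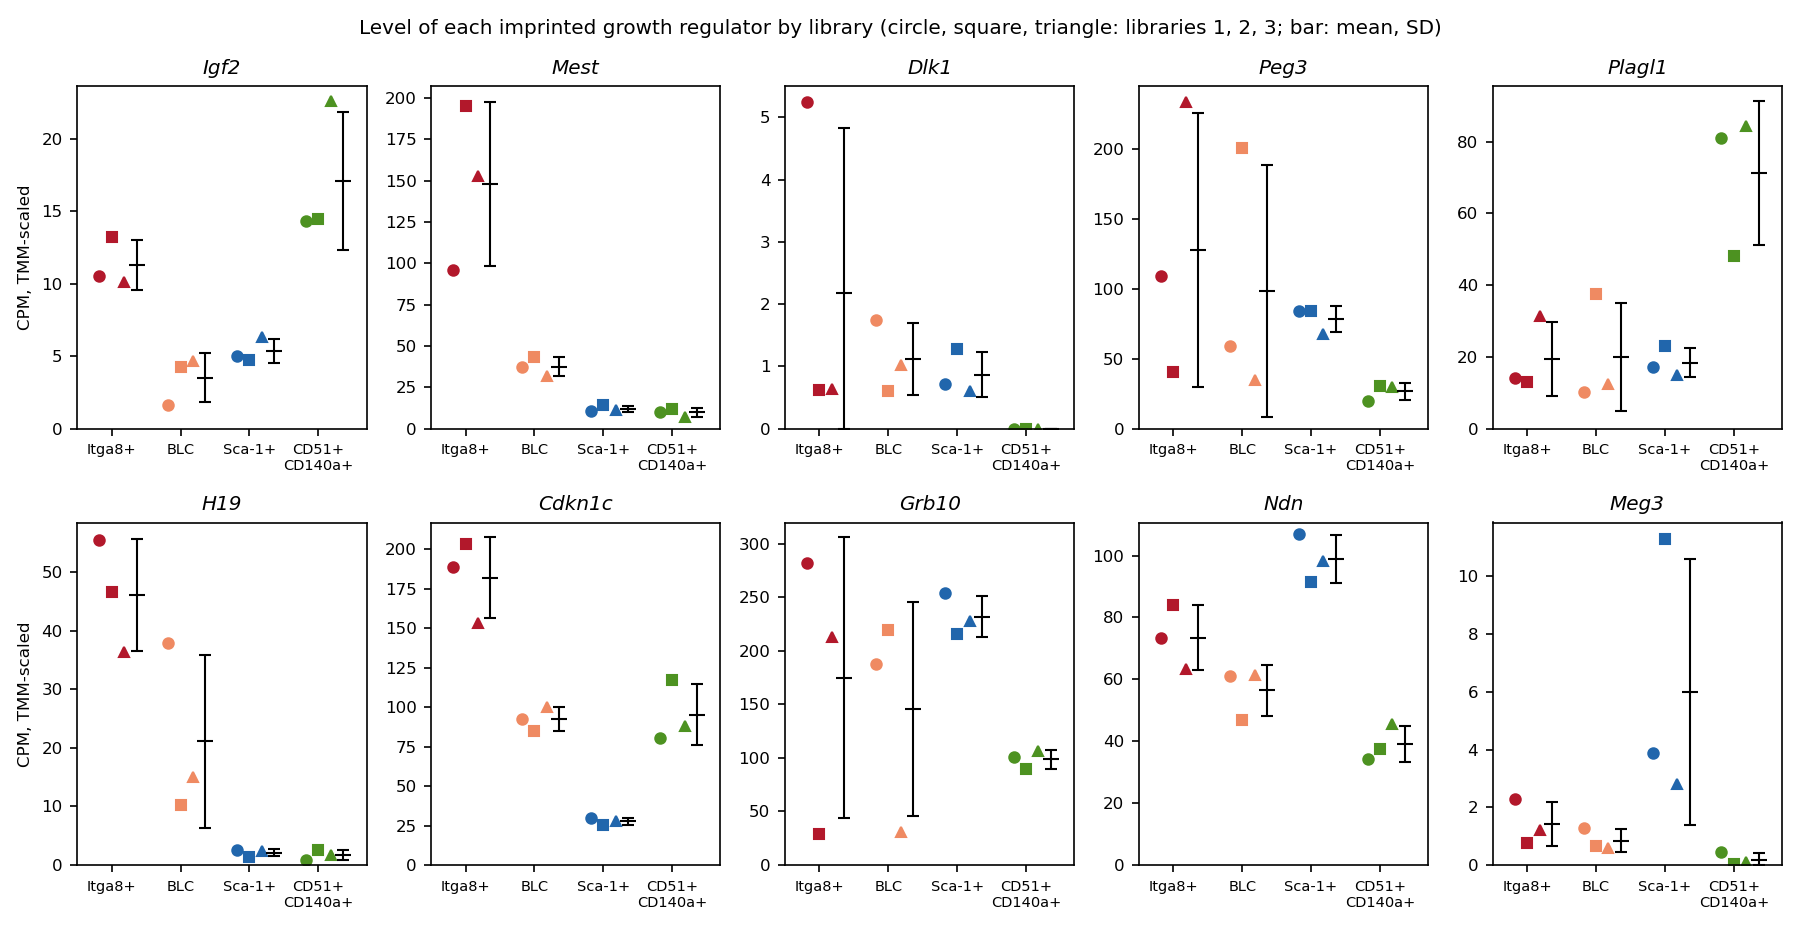
Level of the 10 genes in each of the 12 libraries, in TMM-scaled CPM on linear axes that start at 0. Circles, squares and triangles are libraries 1, 2 and 3 of a population, and the black bar gives the mean and SD of the 3. Mest was highest in all 3 libraries of Itga8+ MSCs, Plagl1 in all 3 of CD51+CD140a+ MSCs, and Grb10 spread between 29.4 and 282 CPM within Itga8+ MSCs.

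A difference was called where the adjusted p (edgeR quasi-likelihood test, Benjamini-Hochberg over 18648 genes) was under 0.1 and the fold above 2, the thresholds of the study. Of 60 comparisons of a gene between populations, 29 were called, and in none of these did the libraries overlap. The counts are set against the share of all tested genes called by the same rule. Between Itga8+ MSCs and Itga8-Alcam+ BLCs 2 of the 10 genes were called, both higher in Itga8+ MSCs, against 3.82% of all genes called, 1.66% higher and 2.16% lower. Itga8+ MSCs differed from Sca-1+ MSCs in 4, all higher in Itga8+ MSCs, against a background of 21.7% (12.9% higher and 8.89% lower). Against CD51+CD140a+ MSCs, 5 were higher and 1 was lower in Itga8+ MSCs, with a background of 35.6% (21.2% higher and 14.3% lower). Itga8-Alcam+ BLCs had 3 higher and 1 lower than Sca-1+ MSCs (background 26.4%, with 14.5% higher and 11.9% lower) and 5 higher and 2 lower than CD51+CD140a+ MSCs (background 35.3%, with 20.4% higher and 14.9% lower). Sca-1+ MSCs had 3 higher and 3 lower than CD51+CD140a+ MSCs (background 20.5%, with 11.2% higher and 9.30% lower). Libraries did not overlap for 4, 6, 9, 6, 8 and 8 of the 10 genes in these comparisons, in the same order, beside 14.2%, 37.6%, 44.4%, 45.7%, 49.8% and 45.9% of all genes. The median log2 fold change of the 10 was 0.847, 0.891, 1.6, 0.224, 1.22 and 0.77 in these 6 comparisons, beside 0.0838, 0.156, 0.182, 0.117, 0.0909 and -0.00256 over all tested genes. The 6 comparisons share libraries, so that their counts are not independent of each other. Because the 10 genes were chosen with earlier results of these data known, the counts and medians are not independent evidence about imprinted genes.

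**Figure D2:**
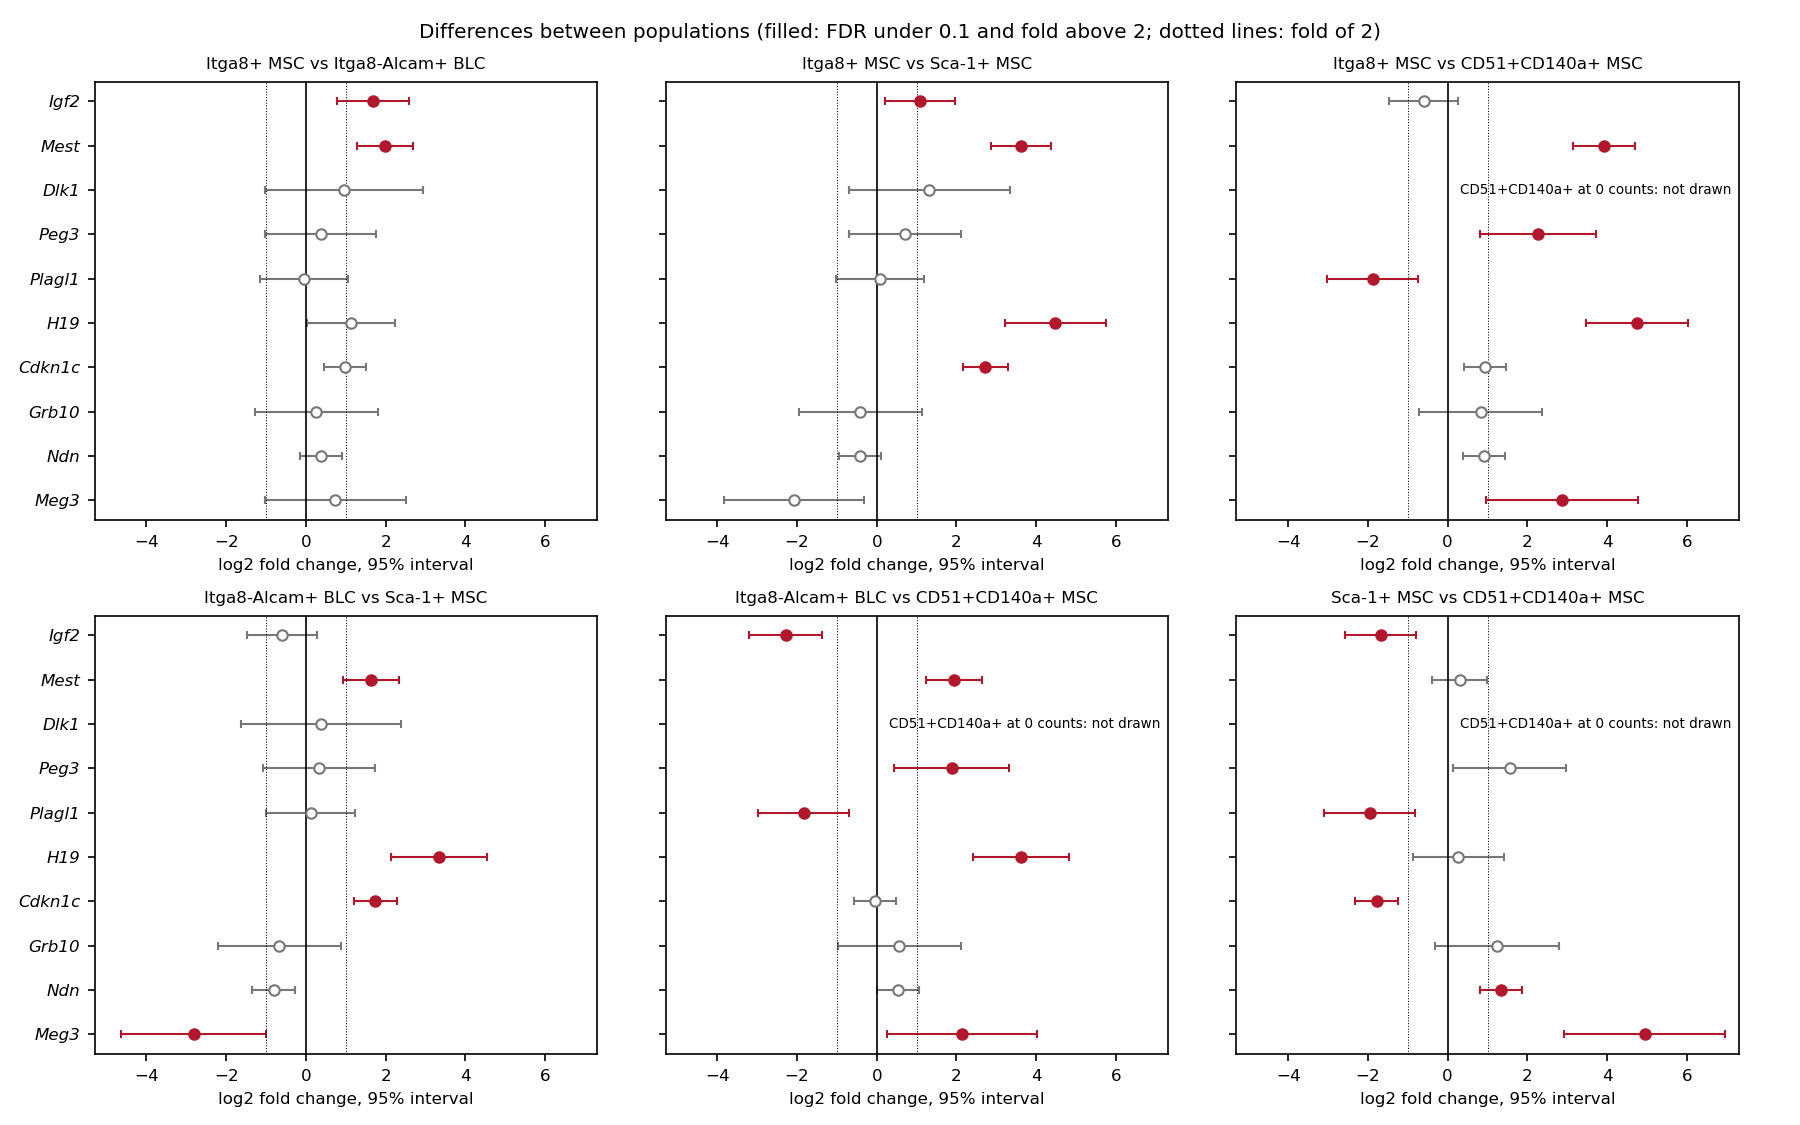
Log2 fold change of the first named population over the second, with the 95% interval of the edgeR fit, for the 10 genes in 6 comparisons. Filled points passed an adjusted p of 0.1 and a fold of 2, which is marked by dotted lines. Dlk1 against CD51+CD140a+ MSCs is not drawn because all 3 of those libraries had 0 counts. H19 and Mest lay to the right in all 4 comparisons of Itga8+ MSCs or BLCs with Sca-1+ or CD51+CD140a+ MSCs.

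Igf2 encodes insulin-like growth factor 2, the growth factor of the fetus, which signals through the type 1 IGF and insulin receptors. It lies at chr7:142650766-142666816 on the minus strand (GRCm38). Igf2 was at 14.3, 14.5 and 22.6 CPM in CD51+CD140a+ MSCs and at 10.5, 13.2 and 10.1 CPM in Itga8+ MSCs. It was at 4.98, 4.73 and 6.33 CPM in Sca-1+ MSCs and at 1.59, 4.26 and 4.68 CPM in Itga8-Alcam+ BLCs. Gm49394, a second annotated gene on the same strand, covers 62.8% of the exon bases of Igf2 and was not among the counted identifiers. The libraries of the 4 populations did not overlap in any of the 6 comparisons. Igf2 was lower in Itga8-Alcam+ BLCs and in Sca-1+ MSCs than in CD51+CD140a+ MSCs, by a log2 fold change of -2.29 ± 0.42 (SE; adjusted p = 0.0016) and -1.68 ± 0.41 (adjusted p = 0.0126). Itga8+ MSCs exceeded Itga8-Alcam+ BLCs (1.68 ± 0.41, adjusted p = 0.0534) and passed narrowly against Sca-1+ MSCs (1.08 ± 0.40, adjusted p = 0.0898). This last call was lost in 14 of 24 alternative analyses, and the call against Itga8-Alcam+ BLCs in 4, among them those without library 1 of Itga8+ MSCs (adjusted p = 0.104) or library 1 of Itga8-Alcam+ BLCs (adjusted p = 0.116). Between CD51+CD140a+ and Itga8+ MSCs the log2 fold change of Itga8+ over CD51+CD140a+ was -0.60, with a 95% interval from -1.47 to 0.26.

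H19 is a long non-coding RNA transcribed next to Igf2 from the opposite parental copy, under a control region that the 2 genes share. It lies at chr7:142575529-142578143 on the minus strand. H19 was at 55.5, 46.6 and 36.4 CPM in Itga8+ MSCs and at 38, 10.2 and 15.1 CPM in Itga8-Alcam+ BLCs. Sca-1+ MSCs had 2.49, 1.37 and 2.34 CPM of H19, and CD51+CD140a+ MSCs had 0.902, 2.61 and 1.64 CPM. Every library of the Alcam+ sorts thus lay above every library of the other populations. In Itga8+ MSCs H19 was 22.3-fold higher than in Sca-1+ MSCs (log2 fold change 4.48 ± 0.58, adjusted p = 0.000483) and 26.8-fold higher than in CD51+CD140a+ MSCs (4.75 ± 0.59, adjusted p = 0.000111). In Itga8-Alcam+ BLCs it was 10.2-fold and 12.3-fold higher (adjusted p = 0.0015 and 0.000532), and without library 1 of this population the log2 fold changes went from 3.35 and 3.62 to 2.56 and 2.87. Itga8+ MSCs and Itga8-Alcam+ BLCs overlapped, with a log2 fold change of 1.13 (95% interval 0.03 to 2.23, adjusted p = 0.394). That comparison passed both thresholds when library 1 of Itga8-Alcam+ BLCs was left out (1.88, adjusted p = 0.0957).

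H19 and Igf2 were ordered differently across the populations, and their ratio within a library does not depend on scaling between libraries. The ratio may still carry the trend with gene length, as H19 is among the short genes and Igf2 is not, which was not tested. Per length, H19 was 12.3, 8.18 and 8.38 times as abundant as Igf2 in Itga8+ MSCs and 55.5, 5.59 and 7.52 times in Itga8-Alcam+ BLCs. The ratio was 1.16, 0.675 and 0.862 in Sca-1+ MSCs and 0.147, 0.418 and 0.169 in CD51+CD140a+ MSCs. H19 therefore exceeded Igf2 in the 6 libraries of the Alcam+ sorts and was below it in all 3 of CD51+CD140a+ MSCs. The geometric mean was 43.3-fold higher in Itga8+ than in CD51+CD140a+ MSCs and 10.8-fold higher than in Sca-1+ MSCs. In 5 of the 6 pairs of populations the ratios did not overlap, with p = 0.1 in the exact two-sided permutation test, the smallest that 3 libraries against 3 allow, and 0.12 after Benjamini-Hochberg adjustment over the 6 pairs. Itga8+ MSCs and Itga8-Alcam+ BLCs overlapped (exact permutation p = 1). The value of 55.5 rested on 32 counts of Igf2. The microRNA gene Mir675, which lies within an exon of H19 on the same strand, was at 0 counts in all 12 libraries. A read there cannot be told from a read of H19, so this 0 does not speak of the microRNA.

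**Figure D3:**
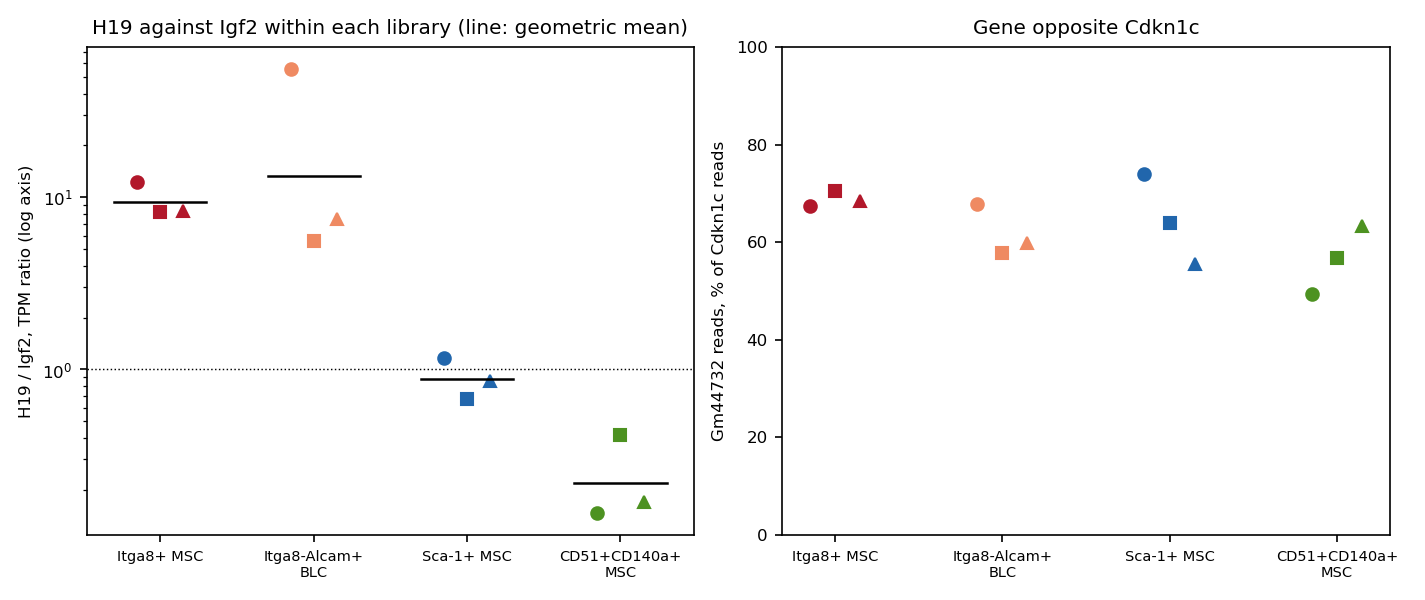
Left, ratio of H19 to Igf2 TPM in each library on a log axis, with the geometric mean of each population as a line and a dotted line at equality. The 3 CD51+CD140a+ MSC libraries lie between 0.147 and 0.418 and the 3 Itga8+ MSC libraries between 8.18 and 12.3. Right, reads counted on Gm44732, opposite Cdkn1c, as a percentage of those counted on Cdkn1c, from 49.4% to 73.9%. Circles, squares and triangles are libraries 1, 2 and 3.

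Mest encodes a protein of the alpha/beta hydrolase fold in the endoplasmic reticulum and is paternally expressed in embryonic mesoderm. It lies at chr6:30723547-30748465 on the plus strand. Mest was at 95.8, 195 and 153 CPM in Itga8+ MSCs and at 37.5, 43.1 and 31.6 CPM in Itga8-Alcam+ BLCs. It was at 10.5, 14.1 and 11.5 CPM in Sca-1+ MSCs and at 10.3, 11.9 and 6.99 CPM in CD51+CD140a+ MSCs. Of the pairs of populations only the last 2 overlapped. Mest was 3.96-fold higher in Itga8+ MSCs than in Itga8-Alcam+ BLCs (log2 fold change 1.98 ± 0.33, adjusted p = 0.00623), 12.3-fold higher than in Sca-1+ MSCs (3.62 ± 0.35, adjusted p = 0.000103) and 15.2-fold higher than in CD51+CD140a+ MSCs (3.92 ± 0.35, adjusted p = 1.26e-05). Itga8-Alcam+ BLCs were in turn higher than Sca-1+ MSCs by 1.63 (adjusted p = 0.00456) and than CD51+CD140a+ MSCs by 1.94 (adjusted p = 0.000989). These 5 calls held in all 24 alternative analyses. Between Sca-1+ and CD51+CD140a+ MSCs the log2 fold change was 0.30, with a 95% interval from -0.39 to 1.00. Copg2, a coat protein gene on the opposite strand, covers 23.1% of the exon bases of Mest. It was counted at 482, 556 and 438 reads in Itga8+ MSCs, beside 1937, 3757 and 2643 reads of Mest, and was not called between Itga8+ MSCs and Itga8-Alcam+ BLCs (-0.12, adjusted p = 0.961). In Itga8+ MSCs Copg2 was higher, as Mest was, against both Sca-1+ MSCs (1.10, adjusted p = 0.0572) and CD51+CD140a+ MSCs (1.73, adjusted p = 0.00395). The same held for Itga8-Alcam+ BLCs (1.22 and 1.85, adjusted p = 0.0309 and 0.00253). The part of Copg2 reads in these differences of Mest was not tested. Across the 12 libraries the reads of Copg2 were 14.8% to 159% of those of Mest, a share that falls by construction as Mest rises.

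Dlk1 encodes a membrane protein related to Notch ligands that restrains adipocyte formation. It lies at chr12:109452823-109463336 on the plus strand. Its reads were few, with 106, 12 and 11 counts in the Itga8+ MSC libraries, 35, 13 and 17 in Itga8-Alcam+ BLCs, 13, 25 and 13 in Sca-1+ MSCs and 0 in each CD51+CD140a+ MSC library. The 3 populations from bone therefore all had reads where CD51+CD140a+ MSCs, with the deepest libraries, had none. Dlk1 passed the filter of 0.5 CPM only through these 3 populations. Against the floor of 3 counts per library, or 0.0882 CPM, Dlk1 was at least 24.6-fold higher in Itga8+ MSCs, at least 12.7-fold higher in Itga8-Alcam+ BLCs and at least 9.83-fold higher in Sca-1+ MSCs (adjusted p = 0.0016, 0.0029 and 0.00511). Without library 1 of Itga8+ MSCs, which held most of its reads, the first bound became 7.14-fold. Among the populations from bone Dlk1 overlapped in every comparison, and the direction of each of the 3 turned when 1 library was left out.

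Meg3 is a long non-coding RNA of the Dlk1 domain, transcribed from the maternal copy. It lies at chr12:109541001-109571726 on the plus strand. Meg3 was at 3.87, 11.3 and 2.81 CPM in Sca-1+ MSCs, the population in which it was highest. It was at 2.28, 0.779 and 1.21 CPM in Itga8+ MSCs, at 1.29, 0.649 and 0.6 CPM in Itga8-Alcam+ BLCs and at 0.437, 0.0287 and 0.0966 CPM in CD51+CD140a+ MSCs. The CD51+CD140a+ MSC libraries held 16, 1 and 3 counts and lay below every library from bone. Meg3 was higher than in CD51+CD140a+ MSCs by a log2 fold change of 4.94 ± 0.93 in Sca-1+ MSCs (adjusted p = 0.00256), 2.87 ± 0.87 in Itga8+ MSCs (adjusted p = 0.0283) and 2.13 ± 0.87 in Itga8-Alcam+ BLCs (adjusted p = 0.083). Without library 1 of CD51+CD140a+ MSCs only 4 counts remained there, so that a fitted fold is not a measurement. The ratio of pooled counts per scaled library size was then 98.2 (exact 95% interval of counting error alone 38.0 to 363), 23.8 (8.95 to 89.5) and 14.1 (5.19 to 53.9). The third call was lost in 8 alternative analyses, among them those without library 1 (adjusted p = 0.232) or 3 (0.107) of Itga8-Alcam+ BLCs, library 1 of Sca-1+ MSCs (0.101), and library 2 (0.194) or 3 (0.211) of CD51+CD140a+ MSCs. Meg3 was also lower in Itga8-Alcam+ BLCs than in Sca-1+ MSCs (-2.81 ± 0.83, adjusted p = 0.0329), and this call was lost without library 2 of Sca-1+ MSCs (-1.97, adjusted p = 0.165), without library 3 of Itga8-Alcam+ BLCs (-2.61, adjusted p = 0.107), or once the trend with gene length was removed (-1.86, adjusted p = 0.116). Without library 2 of Sca-1+ MSCs the log2 fold change over CD51+CD140a+ MSCs was 4.10. Itga8+ and Sca-1+ MSCs did not overlap but missed the threshold (-2.07, 95% interval -3.82 to -0.31, adjusted p = 0.101). This difference was called in 7 of the 24 alternative analyses, among them DESeq2 (adjusted p = 0.0436), limma-trend (0.0776), the 2 populations fitted alone (0.0982) and the fits without library 1 (0.068) or 2 (0.0779) of CD51+CD140a+ MSCs. It was smaller without library 2 of Sca-1+ MSCs (-1.23, adjusted p = 0.393) and once the trend with gene length was removed (-1.16, adjusted p = 0.32). Both genes of the domain were thus lowest in CD51+CD140a+ MSCs. Within the Meg3 exons 3 small RNA genes on the same strand, Mir770, Mir1906-1 and Gm27300, were at 0 in all 12 libraries. Reads there cannot be told from reads of Meg3, so these 0 counts do not speak of the small RNAs.

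Cdkn1c encodes p57Kip2, an inhibitor of cyclin-dependent kinases that holds blood stem cells and other stem cells in quiescence. It lies at chr7:143458339-143461050 on the minus strand. Cdkn1c was at 189, 203 and 153 CPM in Itga8+ MSCs, at 92.4, 85.1 and 100 CPM in Itga8-Alcam+ BLCs, at 80.2, 117 and 87.9 CPM in CD51+CD140a+ MSCs and at 29.7, 25.5 and 27.6 CPM in Sca-1+ MSCs. All Itga8+ MSC libraries lay above all others and all Sca-1+ MSC libraries below all others. Cdkn1c was 6.59-fold higher in Itga8+ than in Sca-1+ MSCs (log2 fold change 2.72 ± 0.26, adjusted p = 8.82e-05). Itga8-Alcam+ BLCs were 3.35-fold higher than Sca-1+ MSCs (adjusted p = 0.000595), and CD51+CD140a+ MSCs were 3.44-fold higher (adjusted p = 0.000313). Itga8+ MSCs exceeded Itga8-Alcam+ BLCs 1.97-fold (0.98 ± 0.24, adjusted p = 0.0599) and CD51+CD140a+ MSCs 1.91-fold (0.94 ± 0.24, adjusted p = 0.0133), which missed the fold threshold only. The first passed both thresholds with DESeq2 (adjusted p = 0.000293), with RLE scaling (0.0585), with library totals alone (0.0323) or without library 3 of Itga8+ MSCs (0.0582). The second passed without that library (adjusted p = 0.0106) or without library 2 of CD51+CD140a+ MSCs (0.0158). Between Itga8-Alcam+ BLCs and CD51+CD140a+ MSCs the log2 fold change was -0.04, with a 95% interval from -0.56 to 0.49.

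A second annotated gene, Gm44732 (chr7:143459749-143460640), lies opposite Cdkn1c and covers 30.6% of its exon bases. Gm44732 received 2577, 2764 and 1816 reads in Itga8+ MSCs and 320 to 397 in Sca-1+ MSCs. This was between 49.4% and 73.9% of the Cdkn1c reads in every one of the 12 libraries. Whether the counting used strand is not given in the sources used here, so reads of the 2 genes cannot be told apart in the shared stretch. The libraries were made with a SMART-Seq kit, which does not keep the strand. When the reads of genes that lie inside one of the 10 were added to it, an alternative chosen after the data were seen, Cdkn1c passed both thresholds in Itga8+ MSCs against Itga8-Alcam+ BLCs (1.04, adjusted p = 0.0511) and against CD51+CD140a+ MSCs (1.05, adjusted p = 0.00865). In the same way 7 genes opposite one of the 10 had reads, whereas the 4 annotated inside H19 or Meg3 on the same strand had none.

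Grb10 encodes an adaptor that binds the insulin and IGF1 receptors and restrains growth. It lies at chr11:11930508-12038683 on the minus strand. Grb10 was at 282, 29.4 and 213 CPM in Itga8+ MSCs and at 188, 219 and 31.2 CPM in Itga8-Alcam+ BLCs. It was at 254, 216 and 228 CPM in Sca-1+ MSCs and between 89.3 and 106 CPM in the 3 libraries of CD51+CD140a+ MSCs. The low values fell in the 2 libraries whose long genes were low. No comparison was called for Grb10, and the 95% intervals were wide, for example from -1.28 to 1.80 between Itga8+ MSCs and Itga8-Alcam+ BLCs. Without both of these libraries, an alternative chosen after the data were seen, Grb10 was higher than in CD51+CD140a+ MSCs in Itga8+ MSCs (1.36, adjusted p = 0.000511), in Itga8-Alcam+ BLCs (1.04, adjusted p = 0.00243) and in Sca-1+ MSCs (1.24, adjusted p = 0.000546). With every library kept the 3 values were 0.83, 0.56 and 1.24 and none passed (adjusted p = 0.393, 0.573 and 0.302). With Sca-1+ and CD51+CD140a+ MSCs fitted alone and all their libraries kept, the third passed (1.22, adjusted p = 0.000163). Leaving out library 2 of Itga8+ MSCs alone brought their comparison with CD51+CD140a+ MSCs past the threshold (1.35, adjusted p = 0.0986). With all 12 libraries kept and the trend with gene length removed, also an alternative chosen after the data were seen, none of the 6 comparisons was called for Grb10, and the values of Itga8+ MSCs, Itga8-Alcam+ BLCs and Sca-1+ MSCs over CD51+CD140a+ MSCs were 0.96, 0.69 and 1.08 (adjusted p = 0.232, 0.389 and 0.246).

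Peg3 encodes a large zinc finger factor, expressed from the paternal copy, that regulates growth and cell death. It lies at chr7:6703892-6730431 on the minus strand. Peg3 was at 109, 40.6 and 234 CPM in Itga8+ MSCs and at 59.3, 201 and 35 CPM in Itga8-Alcam+ BLCs. It was at 83.9, 83.9 and 67.4 CPM in Sca-1+ MSCs and at 19.6, 30.6 and 29.9 CPM in CD51+CD140a+ MSCs. Within both Alcam+ sorts the order of the libraries was that of their long genes. Peg3 was higher than in CD51+CD140a+ MSCs in Itga8+ MSCs (log2 fold change 2.26 ± 0.67, adjusted p = 0.0254) and in Itga8-Alcam+ BLCs (1.88 ± 0.66, adjusted p = 0.0496). Without library 3 of Itga8+ MSCs the first became 1.495 (adjusted p = 0.0824). The second was lost without library 2 of Itga8-Alcam+ BLCs (0.82, adjusted p = 0.28) or without library 1 or 3 of CD51+CD140a+ MSCs (adjusted p = 0.142 and 0.107). Sca-1+ MSCs lay above CD51+CD140a+ MSCs in every library and missed the threshold with all libraries fitted (1.55, adjusted p = 0.139). That comparison passed in 7 of the 24 alternative analyses, with the 2 populations fitted alone (1.54, adjusted p = 0.000485), with DESeq2 (0.0688), without library 2 (0.0588) or 3 (0.0861) of Itga8+ MSCs, without library 2 of Itga8-Alcam+ BLCs (0.0594), without both libraries with low long genes (0.0226), and once the trend with gene length was removed (1.36, adjusted p = 0.0312). With this trend removed Peg3 also passed in Itga8+ over Sca-1+ MSCs (1.12, adjusted p = 0.0749), where the value with the trend kept was 0.71 (adjusted p = 0.462).

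**Figure D4:**
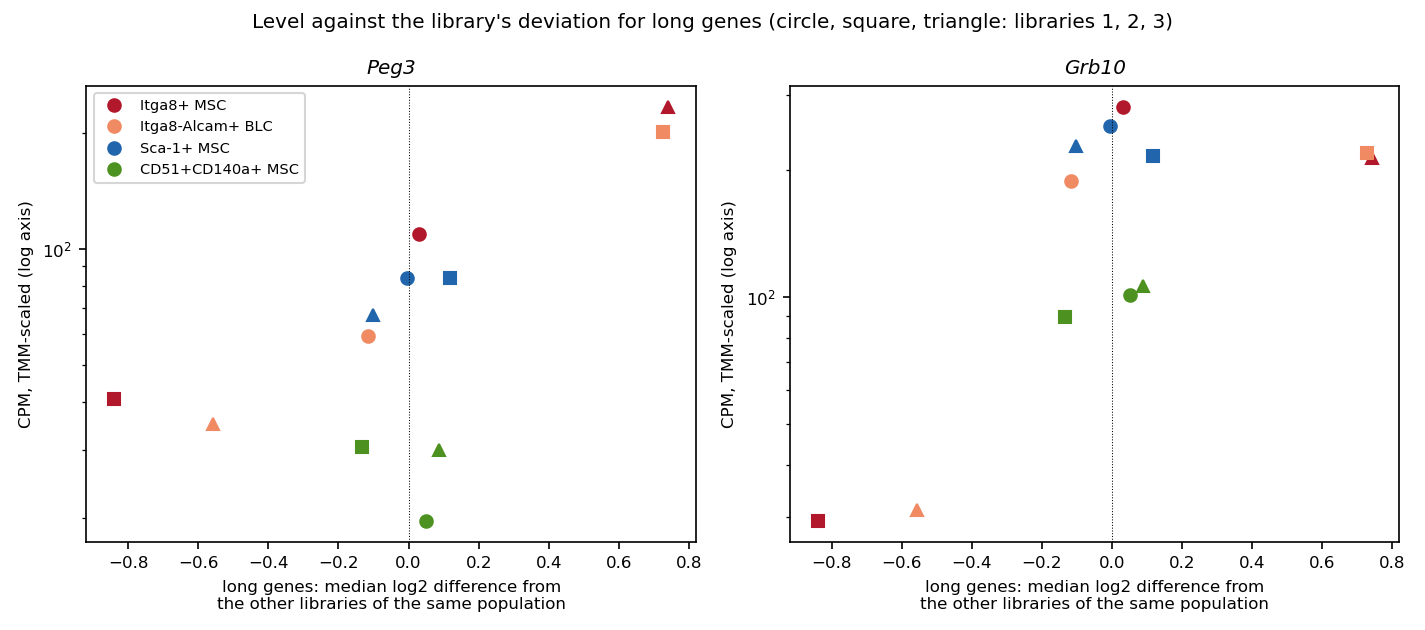
CPM of Peg3 and Grb10 (log axes) against the median log2 difference of long genes between a library and the other libraries of its population. Colours are populations and shapes are libraries 1, 2 and 3. The points at -0.84 and -0.558 are library 2 of Itga8+ MSCs and library 3 of Itga8-Alcam+ BLCs, at which Grb10 was 29.4 and 31.2 CPM.

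Plagl1 encodes the zinc finger factor ZAC1, which acts on other genes of the imprinted network and on the cell cycle. It lies at chr10:13060504-13131694 on the plus strand. Plagl1 was at 80.9, 48.2 and 84.4 CPM in CD51+CD140a+ MSCs. It was at 14, 12.9 and 31.3 CPM in Itga8+ MSCs, at 10.1, 37.4 and 12.4 CPM in Itga8-Alcam+ BLCs and at 17.1, 23 and 15 CPM in Sca-1+ MSCs. Every CD51+CD140a+ MSC library lay above every library from bone. Plagl1 was lower than in CD51+CD140a+ MSCs by a log2 fold change of -1.88 ± 0.52 in Itga8+ MSCs (adjusted p = 0.0191), -1.83 ± 0.52 in Itga8-Alcam+ BLCs (adjusted p = 0.0203) and -1.95 ± 0.53 in Sca-1+ MSCs (adjusted p = 0.0225). The second became -2.67 without library 2 of Itga8-Alcam+ BLCs, in which long genes were high. The 3 calls held in all 24 alternative analyses. The populations from bone overlapped with each other, and the 95% interval between Itga8+ and Sca-1+ MSCs ran from -1.03 to 1.19. Igf2 and Plagl1 were the genes of the 10 with their highest mean in CD51+CD140a+ MSCs.

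Ndn encodes necdin, a protein of the MAGE family that restrains proliferation and is abundant in neurons and mesenchymal cells. It lies at chr7:62346569-62350262 on the plus strand. Ndn was at 107, 91.6 and 98.4 CPM in Sca-1+ MSCs, at 73.4, 84 and 63.2 CPM in Itga8+ MSCs, at 61.2, 46.9 and 61.5 CPM in Itga8-Alcam+ BLCs and at 34.2, 37.4 and 45.7 CPM in CD51+CD140a+ MSCs. No library of one population overlapped with those of another, and the spread within populations was small. Ndn was 2.53-fold higher in Sca-1+ than in CD51+CD140a+ MSCs (log2 fold change 1.34 ± 0.25, adjusted p = 0.00223). The log2 fold change of 0.91 in Itga8+ over CD51+CD140a+ MSCs (adjusted p = 0.0156) and of -0.81 in Itga8-Alcam+ BLCs over Sca-1+ MSCs (adjusted p = 0.0349) missed the fold threshold only. The first passed both thresholds without library 3 of Itga8+ MSCs (1.00, adjusted p = 0.0138) or library 3 of CD51+CD140a+ MSCs (1.04, adjusted p = 0.0289). The second passed with library totals alone (-1.01, adjusted p = 0.0221) or once the trend with gene length was removed (-1.01, adjusted p = 0.0166). Ndn was thus the gene of the 10 with the smallest differences that still separated all the populations by library.

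Other imprinted genes were read from a list of 29, of which 25 passed the filter on low values. In Itga8+ MSCs 0 were higher and 1 was lower than in Itga8-Alcam+ BLCs (all genes 1.66% and 2.16%), 2 were higher and 1 lower than in Sca-1+ MSCs (12.9% and 8.89%), and 4 were higher and 7 lower than in CD51+CD140a+ MSCs (21.2% and 14.3%). The median log2 fold change of the list was -0.04, -0.25 and -0.70 in these comparisons, beside 0.0838, 0.156 and 0.182 over all genes. For Itga8-Alcam+ BLCs 5 were higher and 3 lower than in Sca-1+ MSCs (all genes 14.5% and 11.9%), and 4 higher and 6 lower than in CD51+CD140a+ MSCs (20.4% and 14.9%), with medians of 0.09 and -0.14 beside 0.117 and 0.0909. Sca-1+ MSCs had 2 higher and 3 lower than CD51+CD140a+ MSCs (11.2% and 9.30%), with a median of -0.54 beside -0.00256. Phlda2, a maternally expressed neighbour of Cdkn1c that restrains placental growth, was at 4.45, 12.4 and 3.12 CPM in Itga8+ MSCs and 8.07, 2.5 and 9.89 CPM in Itga8-Alcam+ BLCs. It was at 0 to 0.281 CPM in Sca-1+ MSCs and 0.143 to 0.226 CPM in CD51+CD140a+ MSCs. Itga8+ MSCs were above these populations by fitted log2 fold changes of 5.78 and 5.19 (adjusted p = 0.00206 and 0.00115). The first is not a measurement, because the mean in Sca-1+ MSCs, 0.111 CPM, was under the floor of 0.153 CPM there. For Phlda2, as for H19, every library of the Alcam+ sorts lay above every library of the other populations. Phlda2 passed the filter of 0.5 CPM only through the Alcam+ sorts. Rian, a non-coding RNA downstream of Meg3, was at 2.67, 3.32 and 0.751 CPM in Itga8+ MSCs, with 0, 0 and 7 counts in CD51+CD140a+ MSCs. It was higher in all 3 populations from bone (fitted log2 fold changes of 4.88, 5.28 and 5.20, adjusted p = 0.00862, 0.00566 and 0.00847). The mean of Rian in CD51+CD140a+ MSCs, 0.0752 CPM, was under the floor of 0.0882 CPM, so these folds are not measurements. Peg13, a paternally expressed non-coding RNA, was at 79.3 to 95.2 CPM in CD51+CD140a+ MSCs and fell to 0.935 to 16.8 CPM in Itga8+ MSCs (-3.29, adjusted p = 0.00761). Asb4, which encodes a protein with ankyrin repeats, was at 14.2 to 24.2 CPM in CD51+CD140a+ MSCs and lower in the other 3 (log2 fold changes from -2.83 to -1.33). Nnat, which encodes neuronatin, was at 0 counts in all 3 Sca-1+ MSC libraries and at least 10.5-fold higher in CD51+CD140a+ MSCs.

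**Figure D5:**
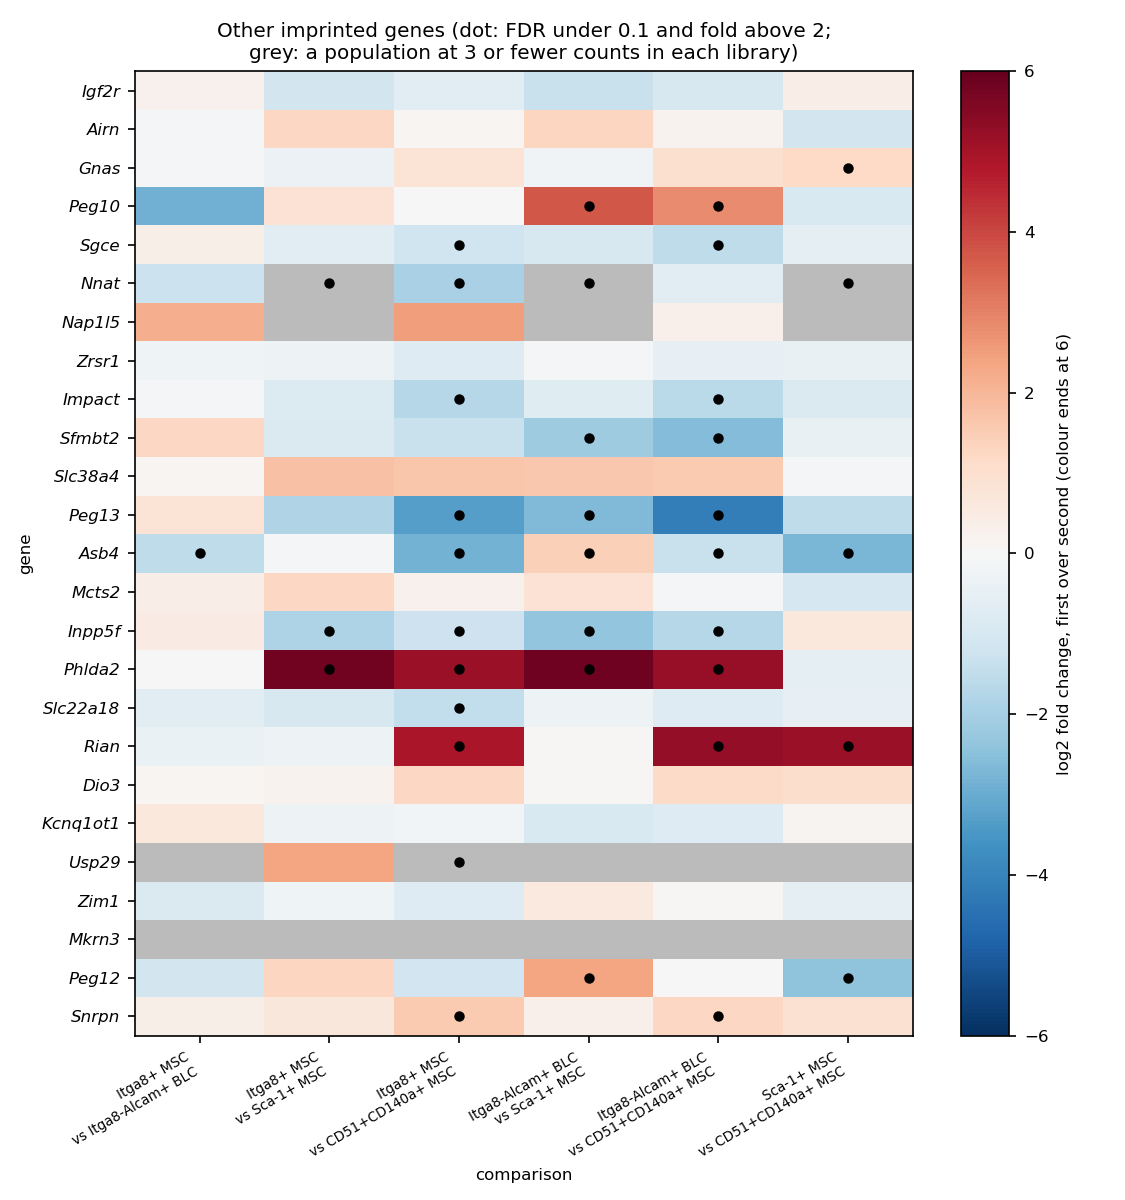
Log2 fold change of the first named population over the second for the 25 other imprinted genes that were tested, coloured up to 6 in either direction. Dots mark an adjusted p under 0.1 with a fold above 2, and grey cells a population with 3 or fewer counts in each library, where the fitted fold is not a measurement. Phlda2 and Rian have the deepest red, with fitted values from 4.88 to 5.82 where they were called.

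Of 13 genes of IGF signalling 11 were tested. In Itga8+ MSCs 1 was higher and 2 were lower than in Itga8-Alcam+ BLCs (all genes 1.66% and 2.16%), and 0 were higher and 1 lower than in Sca-1+ MSCs (12.9% and 8.89%). Itga8-Alcam+ BLCs had 3 higher and 1 lower than Sca-1+ MSCs (14.5% and 11.9%), and 2 higher and 4 lower than CD51+CD140a+ MSCs (20.4% and 14.9%). Igf1, the second ligand of the IGF1 receptor, was at 523, 497 and 686 CPM in Sca-1+ MSCs, 318, 287 and 311 CPM in CD51+CD140a+ MSCs, 83.1, 145 and 178 CPM in Itga8+ MSCs and 28.5, 50.1 and 21.4 CPM in Itga8-Alcam+ BLCs. Igf1 was 4.06-fold higher in Itga8+ MSCs than in Itga8-Alcam+ BLCs (adjusted p = 0.0112), the same direction as Igf2, and 4.2-fold lower than in Sca-1+ MSCs (adjusted p = 0.00313), the opposite direction. The 2 genes lower in Itga8+ MSCs than in Itga8-Alcam+ BLCs were the insulin receptor gene Insr (-2.27, adjusted p = 0.0364) and Hmga1, which encodes a chromatin protein (-1.25, adjusted p = 0.0541). Against CD51+CD140a+ MSCs 5 of the 11 genes were lower and 0 higher in Itga8+ MSCs, where 14.3% of all genes were lower and 21.2% higher. They were Igf1, Insr, the receptor substrates Irs1 and Irs2, and Igf2bp2, which binds Igf2 mRNA. Irs1 fell by a log2 fold change of -2.76 and Irs2 of -2.49 (adjusted p = 0.00399 and 0.00995). Sca-1+ MSCs had 4 of the same genes lower, all but Igf1 (9.30% of all genes lower). For the receptors Igf1r and Igf2r no comparison was called, and Igf2r, which clears Igf2 and is itself imprinted, was at 71.9 to 75.8 CPM in CD51+CD140a+ MSCs and at 69.1 to 123 CPM in Sca-1+ MSCs. Igf2r was at 19.8, 16.1 and 101 CPM in Itga8+ MSCs and at 14.1, 88.5 and 10.1 CPM in Itga8-Alcam+ BLCs, highest in the library of each whose long genes were high.

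Of 14 genes of the cell cycle, all tested, 6 were higher and 0 lower in Itga8+ than in Sca-1+ MSCs, where 12.9% of all genes were higher and 8.89% lower. Against CD51+CD140a+ MSCs 5 were higher and 0 lower, beside 21.2% and 14.3% of all genes (35.6% in either direction). Itga8-Alcam+ BLCs had 5 higher and 1 lower than Sca-1+ MSCs (14.5% and 11.9%) and 3 higher and 1 lower than CD51+CD140a+ MSCs (20.4% and 14.9%), and Sca-1+ MSCs had 2 higher and 0 lower than CD51+CD140a+ MSCs (11.2% and 9.30%). Higher in Itga8+ MSCs than in both Sca-1+ and CD51+CD140a+ MSCs were Cdkn2c, an inhibitor of the same kinases, Ccnd1, a cyclin that activates them, and Ccna2, another cyclin. The other genes called were Cdk4, Ccne1 and Top2a against Sca-1+ MSCs, and Cdkn1a and Ccnd2 against CD51+CD140a+ MSCs. Mki67, a marker of proliferation, was called in neither comparison. Cdkn2c was at 48.2, 50.2 and 43.7 CPM in Itga8+ MSCs and at 9.46 to 13 CPM in Sca-1+ MSCs, and was the 1 gene of the list that was called against Itga8-Alcam+ BLCs (2.27-fold higher, adjusted p = 0.0292, beside 1.66% of all genes higher). Ccnd1 was at 24.5, 134 and 58.7 CPM in Itga8+ MSCs and at 1.39 to 2.43 CPM in CD51+CD140a+ MSCs (5.36 ± 0.64, adjusted p = 8.74e-05). Cdkn1b, the paralogue of Cdkn1c, was at 0.831 to 6.34 CPM in the 12 libraries and was called in no comparison.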

How the data were processed

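RNA of 12 libraries from 4 sorted populations, 3 each, was amplified by the authors with a SMART-Seq kit and made into Nextera XT libraries. The authors deposited raw read counts per Ensembl gene without normalization. The submitters' processing notes name FastQC 0.11.7, Trimmomatic 0.38, HISAT2 2.1.0, SAMtools 1.9, featureCounts 1.6.3 and mm10, whereas the methods of the study name TopHat and Bowtie2. The annotation release and strand setting are not given in the sources used here. Groups and library numbers came from the labels.

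Counts were fitted in 1 edgeR 4.0.16 quasi-likelihood model (R 4.3.3) with TMM scaling. The 18648 genes that reached 0.5 CPM in 1 library or more were fitted. Benjamini-Hochberg adjustment covered all of them. CPM values are TMM-scaled. Names, exon lengths, TPM and overlaps used GENCODE M21, which lacks 259 of the identifiers. Each of the 10 genes had at least 95.96% of its 50-base words in no gene other than itself or an overlapping gene. The 10 genes and all lists were chosen with earlier results of these data known. Every one of the 10 is named. A gene of another list could be named only if it passed the thresholds in a comparison or one of the 10 is set beside it, as for Cdkn1b, Igf1r and Igf2r. Not every such gene is named, the choice was made after the values were seen, and the rest are given by counts. Marker genes are named as checks of the populations, and 2 marker genes are not reported here. Settings were compared with DESeq2 1.42.0, limma-trend (limma 3.58.1, prior count of 2) and the alternatives described in the closing section. The 12 libraries held 17580677 to 31332475 counts, and PCR copies cannot be told from separate molecules. Within a population the libraries differed by more than sampling noise. The tests used R, and the tables and figures Python 3.11.15 with pandas 2.3.3 and matplotlib 3.10.9.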

Additional observations from a re-analysis of the deposited data

How the results depend on the processing

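The 60 comparisons were repeated under 24 alternatives: scaling by RLE or by library totals alone, DESeq2 and limma-trend as tests, 2 other filters on low counts, separate fits of each pair of populations, a replicate block for library number, an adjusted p under 0.05, each of the 12 libraries left out in turn and, chosen after the data were seen, removal of the trend with gene length, both libraries with low long genes left out together, and reads of genes inside one of the 10 added to it. Of the 29 calls, 24 held under every alternative, and none turned its direction. The others were those of Igf2 between Itga8+ MSCs and both Itga8-Alcam+ BLCs and Sca-1+ MSCs, of Meg3 between Itga8-Alcam+ BLCs and both Sca-1+ and CD51+CD140a+ MSCs, and of Peg3 between Itga8-Alcam+ BLCs and CD51+CD140a+ MSCs. Between Itga8+ MSCs and Itga8-Alcam+ BLCs 1 of the 10 genes was called, in place of 2, with those populations fitted alone or at an adjusted p under 0.05, and 1 to 3 with a library left out, 1 without library 1 of Itga8+ MSCs. The cause was not tested.

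Directions that turned all belonged to differences that were not called. Plagl1 in Itga8+ MSCs against Itga8-Alcam+ BLCs became 0.091 with limma-trend, 0.26 with library totals alone, 0.024 with the replicate block and 0.061 without the length trend. Against Sca-1+ MSCs, Plagl1 in Itga8+ MSCs became -0.022 with limma-trend, and in Itga8-Alcam+ BLCs -0.11 with limma-trend and -0.16 with library totals alone. Peg3 in Itga8-Alcam+ BLCs against Sca-1+ MSCs became -0.062 with limma-trend, Grb10 in Itga8+ against Sca-1+ MSCs 0.12 without both libraries, and Cdkn1c in Itga8-Alcam+ BLCs against CD51+CD140a+ MSCs 0.0080 with the inside reads added. With 1 library left out the log2 fold changes of Itga8+ MSCs over Itga8-Alcam+ BLCs ranged from -0.83 to 1.45 for Dlk1, -0.27 to 0.79 for Grb10, -0.57 to 0.80 for Plagl1 and -0.39 to 1.46 for Peg3. Those of Itga8+ over Sca-1+ MSCs ranged from -0.46 to 1.75 for Dlk1, -0.94 to 0.076 for Grb10, -0.49 to 0.29 for Plagl1 and -0.10 to 1.11 for Peg3. Those of Itga8-Alcam+ BLCs over Sca-1+ MSCs ranged from -0.15 to 0.75 for Dlk1, -0.75 to 0.39 for Plagl1 and -0.77 to 0.73 for Peg3. Cdkn1c in Itga8-Alcam+ BLCs over CD51+CD140a+ MSCs ranged from -0.15 to 0.14 and H19 in Sca-1+ over CD51+CD140a+ MSCs from -0.041 to 0.70.

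The deviations of libraries of the same number correlated between -0.701 and 0.303, and in no comparison were all 3 correlations above 0.1, so the numbers were not read as pairs. Between Itga8-Alcam+ BLCs and Sca-1+ MSCs all 3 were positive (0.0676, 0.198 and 0.23) and each library correlated best with its own number, a hint from the data and not from the design. With the replicate block the 10 genes gave 2, 3, 6, 4, 7 and 6 calls in the 6 comparisons, in place of 2, 4, 6, 4, 7 and 6, the lost one being Igf2 in Itga8+ over Sca-1+ MSCs (adjusted p = 0.116). Over all genes the calls between Itga8+ MSCs and Itga8-Alcam+ BLCs went from 310 higher and 402 lower to 188 and 245 with the block, to 107 and 169 with those populations alone, to 199 and 265 at an adjusted p under 0.05 and to 597 and 606 with DESeq2, and with library totals alone they were 495 higher and 313 lower. They were 197 and 236 without library 3 of Itga8-Alcam+ BLCs, and 446 and 440 without library 2 of Itga8+ MSCs. The background between Itga8+ and Sca-1+ MSCs moved as well, from 2397 higher and 1658 lower. It became 1358 and 1028 without library 2 of Sca-1+ MSCs, and 3110 and 2768 without library 3 of Itga8+ MSCs. Depth limits Dlk1 and Meg3, for which no library of CD51+CD140a+ MSCs held more than 16 counts.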

Other observations

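Genes that lie beside the 10 were read by domain. Lsp1, which encodes a leukocyte actin-binding protein and lies in the H19-Igf2 region, was at 228, 419 and 189 CPM in Itga8+ MSCs and at 235, 236 and 236 CPM in Sca-1+ MSCs, against 6.09, 6.19 and 4.35 CPM in CD51+CD140a+ MSCs. It was higher than in CD51+CD140a+ MSCs in all 3 populations from bone (log2 fold changes of 5.65, 5.06 and 5.41, adjusted p = 1.92e-06, 3.48e-06 and 2.81e-06), and so was Tnnt3, a troponin gene beside it and a marker of skeletal muscle fibres (5.11, 4.45 and 3.85, adjusted p = 0.00189, 0.00382 and 0.0116). Tnnt3 had 3, 0 and 4 counts in CD51+CD140a+ MSCs, a mean of 0.0703 CPM that is under the floor of 0.0882 CPM. Its folds are therefore fitted values and not measurements. Neither Lsp1 nor Tnnt3 was called between the populations from bone, in which H19 did differ.

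Of 9 genes that maintain imprints 8 were tested. Each Alcam+ sort had 2 of them lower than CD51+CD140a+ MSCs, beside 14.3% of all genes for Itga8+ MSCs and 14.9% for Itga8-Alcam+ BLCs. Against Sca-1+ MSCs 1 was higher in Itga8-Alcam+ BLCs, beside 14.5% of all genes, a share that does not stand apart. Zfp57, a zinc finger protein that binds methylated imprinted regions, was at 19, 43 and 23 counts in CD51+CD140a+ MSCs and at 0 in each Itga8+ MSC library, at least 5.22-fold lower. Zfp445, a second such protein, was at 55.2, 47.6 and 64.9 CPM in CD51+CD140a+ MSCs and at 8.41, 7.69 and 29.6 CPM in Itga8+ MSCs (-1.88, adjusted p = 0.0609), with its highest value in the library of Itga8+ MSCs whose long genes were high. Both were also called lower in Itga8-Alcam+ BLCs than in CD51+CD140a+ MSCs. Zfp57 passed the filter of 0.5 CPM only through CD51+CD140a+ MSCs, so its calls carry no weight beside the share of all genes. The 1 other call of the list was Uhrf1, higher in Itga8-Alcam+ BLCs than in Sca-1+ MSCs (1.33, adjusted p = 0.0808), for which the libraries overlapped.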
